A study of Ovis aries with 4 samples.

Results

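The cells described here were mast cell-like cells of the lactating sheep mammary gland, selected on their counts: barcodes were chosen by at least 3 UMIs (unique molecular identifiers, each standing for 1 captured transcript) of TPSB2, the gene of a mast cell tryptase. They also had no UMI of CD3E (a T cell receptor subunit), EPCAM (an epithelial adhesion molecule) or C1QA (a complement gene of macrophages), fewer than 5 UMIs of DCN (decorin, a fibroblast proteoglycan) and at most 20% of UMIs in 13 mitochondrial genes. Of 38886 cells that passed the mitochondrial limit, 67 met this rule. They numbered 0 of 5853 and 0 of 9361 in LH replicates 1 and 2, and 60 of 12639 and 7 of 11033 in LL replicates 1 and 2.

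The study took mammary tissue from 4 lactating ewes and made 1 droplet-based single-cell RNA library from each. According to its design text, 2 of the ewes were at peak and 2 at late lactation. LL is the design's own abbreviation for late lactation, and LH was taken as peak lactation by elimination. No breed, age or treatment was named in the labels, all groups were untreated as far as they say, and each library is the dissociated cells of 1 ewe.

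Mast cells are tissue-resident granulocytes that mature under stem cell factor and the transcription factor GATA1. They carry the high-affinity IgE receptor, whose alpha chain is encoded by FCER1A, and when it is crosslinked they release granules that hold tryptase, histamine and heparin, followed by prostaglandins, leukotrienes and cytokines. In the mammary gland they lie in the stroma, close to ducts and vessels.

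The libraries held 28015149 and 56178927 UMIs in LH and 60303230 and 65339993 in LL, with a median of 2693 to 3294 per barcode. Pairs of libraries shared 15 to 37 barcode sequences, none of which belonged to a member cell. Only 774 of 20150 genes carried a symbol, so most mast cell genes (among them KIT, CPA3, MS4A2 and HDC) could not be looked up by name. Of 11 mast cell markers listed, 3 had a symbol, and they were TPSB2, FCER1A and GATA1.

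The first question was how many such cells each ewe gave. The share was 0.475% in LL replicate 1 (exact Clopper-Pearson 95% interval 0.362% to 0.611%) and 0.0634% in LL replicate 2 (0.0255% to 0.131%). Both LH libraries had none, which allows a share of up to 0.0513% in LH replicate 1 and 0.0320% in LH replicate 2, taking 3 cells as the limit. The Clopper-Pearson upper ends, the same method as for LL, were 0.0630% and 0.0394%. The mean share was 0.269% ± 0.291 in LL and 0% in LH (SD, n = 2 ewes each), a difference of 0.269 percentage points with an exact two-sided permutation p = 0.333, the smallest that 2 ewes against 2 can give. The LL ewes differed from each other more than LL replicate 2 differed from the LH ewes. Without LL replicate 1 the difference was 0.0634 percentage points. These intervals and limits cover counting error only, and the shares are of dissociated cells, not of tissue. The libraries also differed in the stromal cells they held. DCN-positive cells (at least 5 DCN UMIs) numbered 235 and 27 in LH replicates 1 and 2, and 2105 and 1260 in LL. EDNRA-positive cells (at least 2 EDNRA UMIs) numbered 147 and 765 in LH, and 587 and 537 in LL. Whether the shares of members follow such differences was not tested.

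**Figure D1:**
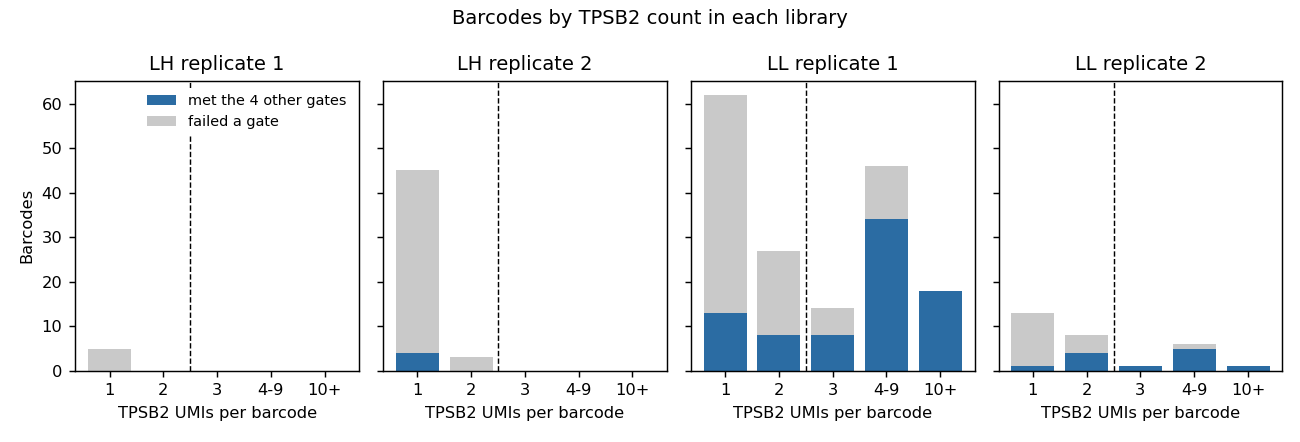
Number of barcodes (vertical axis) by their TPSB2 UMIs (horizontal axis) in each of the 4 libraries. Blue bars are barcodes that met the 4 other gates, grey bars are those that failed 1 or more, and the dashed line marks the minimum of 3 UMIs. The 2 LH libraries hold no barcode right of the line, while LL replicate 1 holds 78, of which 60 met the gates.

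In LL replicate 1, 78 barcodes had at least 3 TPSB2 UMIs. The 18 that failed a gate had EPCAM in 7, DCN of at least 5 in 10, C1QA in 3 and CD3E in 1, and their median of 5348 UMIs was above the 2425.5 of the members. All 18 barcodes with 10 or more TPSB2 UMIs met the gates. In LL replicate 2, 8 barcodes reached 3 UMIs and 1 of them failed for DCN. The highest count in LH was 2 TPSB2 UMIs, seen in 3 barcodes of LH replicate 2.

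FCER1A and GATA1 were described next. The rule did not use them, but they were given as markers together with the label. Their levels are therefore not an independent check of it. FCER1A had 11 UMIs in 9 of the 60 cells of LL replicate 1, a level of 65.1 CPM (UMIs of the gene per 1000000 UMIs of the summed cells; exact Poisson 95% interval 32.5 to 117). In all other cells of that library it stood at 0.167 CPM, a ratio of 391 (95% counting interval 151 to 1027). GATA1 had 10 UMIs in 8 cells, 59.2 CPM (28.4 to 109), against 0.0833 CPM in other cells, a ratio of 711 (221 to 2650). At least 1 of these genes was seen in 16 of the 60 cells and both in 1 cell, at a median depth of 2425.5 UMIs per cell. In LL replicate 2, FCER1A had 2 UMIs and GATA1 had 1 in the 7 cells. Across the LH libraries, with 27913466 and 56161497 UMIs in kept cells, FCER1A and GATA1 both had 0 UMIs.

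Both markers were far above other cells in LL replicate 1, and no kept cell of LH had either. GATA1 is also known from the red cell and platelet lineages, and it was the only gene with a symbol on the list of 6 markers for those. Of the 21 FCER1A UMIs of LL replicate 1, 16 lay in barcodes with a TPSB2 UMI, and of the 15 GATA1 UMIs 14 did. With each cell thinned to 1000 UMIs (58 of 60 members and 825 EPCAM-positive cells reach this), FCER1A was seen in 8.62% of members and in 0 of 825 EPCAM-positive cells, and GATA1 likewise in 8.62% and 0. Without thinning these shares were 15% and 13.3% of members, with 0% of EPCAM-positive cells for both.

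Markers of other cell types were mostly low or absent. For luminal cells, T cells, macrophages and fibroblasts this was partly set by the rule. It removed cells with EPCAM, CD3E, C1QA or much DCN, while the other cells were not gated. Of the T cell markers with a symbol other than CD3E, all 4 (CD3D, CD247, LCK and CD4) were at 0 in the members of LL replicate 1, against a summed 19.8 CPM in other cells. The luminal markers with a symbol (6 without EPCAM) summed to 53.3 CPM in members and 2092 CPM in other cells, with CSN3, CLDN4 and LALBA at 0. Those of fibroblasts (4 without DCN) summed to 337 and 2267 CPM, mostly GSN, with SFRP2 at 0. Contractile markers summed to 438 and 973 CPM with CNN1 at 0, and blood endothelial markers to 29.6 and 245 CPM with SELP at 0. MRC1, the macrophage mannose receptor, had 2 UMIs in 1 cell, and of the neutrophil and monocyte pair IL1B was at 0 and IL1A had 3 UMIs. NCR1 of NK cells and CCR3, the only basophil marker with a symbol, were at 0. In other cells these 2 stood at 1.90 and 0.333 CPM, under the 17.8 CPM that 0 of 168911 UMIs allows. A difference was therefore not detectable, and basophils were not checked. The same limit holds for CD3D, CD247, LCK, CD4, LALBA, CNN1 and IL1B taken singly. The lymphatic pair summed to 178 and 114 CPM, but 23 of the 24 RELN UMIs came from 1 cell. In LL replicate 2 the same lists summed to 429 CPM (luminal), 85.8 CPM (fibroblast) and 0 CPM (T cell, contractile, both endothelial lists), where 1 UMI is worth 85.8 CPM. Eosinophil, B cell and dendritic cell lists had no member with a symbol, so those types were not checked.

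The members were compared with all other cells of LL replicate 1, since LL replicate 2 had fewer than the 10 cells set as a minimum. With 1 library there is no replicate test. The values are ratios of summed levels with counting intervals, and the 5 genes of the rule were left out. Of 3830 genes with at least 10 UMIs in the members or 10 expected from the level in other cells, 792 (20.7%) were at least 2-fold higher in members and 754 (19.7%) at least 2-fold lower. Among the 230 with a symbol, 34 were higher and 69 lower. A gene with fewer than 10 expected UMIs could enter only through the members, and so only as higher. A gene with fewer than 10 UMIs in members could enter only as lower. These counts were therefore partly set by the minimum. The median log2 ratio over all compared genes was 0.09.

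LL replicate 2 served as a check in another ewe, since its cells had no part in choosing these genes. The 132 genes at least 8-fold higher in LL replicate 1 took 7.11% of the members' UMIs there and 0.462% of those of other cells. In the 7 members of LL replicate 2 the same genes took 6.56% of UMIs against 0.312% in its other cells, a ratio of 21.0 (19.6 to 22.6). All 792 higher genes together took 24.3% against 5.61% there, a ratio of 4.32 (4.17 to 4.49). The 754 lower genes took 3.72% against 16.8%, or 4.50-fold less (4.10 to 4.96). The groups of genes chosen in 1 ewe therefore lay on the same side in the other. The same gates picked the members of both libraries, while the other cells were not gated. The side of genes that go with the gate genes, above all the lower ones, was therefore partly set by the choice of cells. The intervals cover counting error only, over 7 cells.

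**Figure D2:**
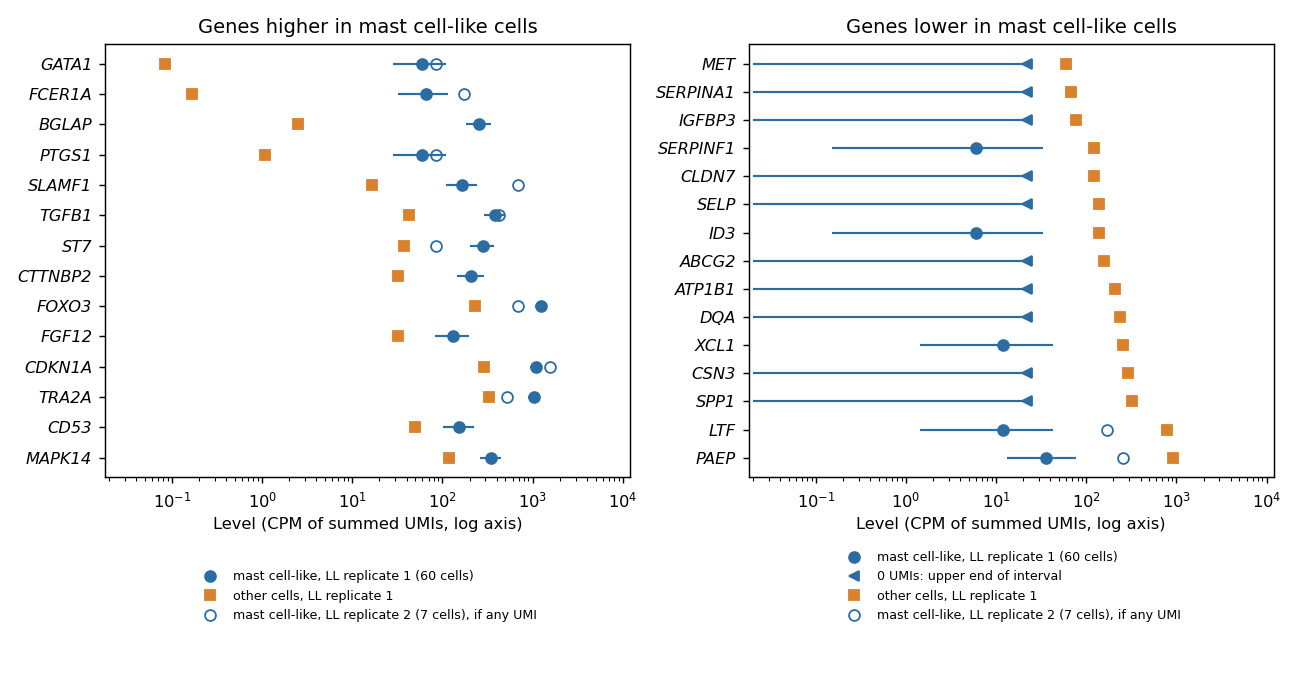
Levels in CPM of summed UMIs (log axis) of the named genes that were higher (left) and lower (right) in the mast cell-like cells. Blue points with lines are the 60 members of LL replicate 1 with Poisson 95% intervals, orange squares all its other cells, open circles the 7 members of LL replicate 2 where a UMI was seen, and left-pointing triangles the upper end of the interval for genes with 0 UMIs. In the left panel GATA1, FCER1A, BGLAP and PTGS1 lie furthest from the other cells, with ratios of 711, 391, 102 and 54.7.

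Among the genes of mast cell mediators, PTGS1 stood out. It encodes cyclooxygenase 1, which starts prostaglandin synthesis and provides the substrate of mast cell prostaglandin D2. PTGS1 had 10 UMIs in 6 cells, 59.2 CPM against 1.08 in other cells, a ratio of 54.7 (25.1 to 107). It sat at the minimum of 10 UMIs and, at its level in other cells, could enter the comparison only as higher. The inducible PTGS2 was at 88.8 and 69.9 CPM, a ratio of 1.27 (0.711 to 2.10), and in LL replicate 2 at 601 and 20.3 CPM, on 7 UMIs that all came from 1 cell. The PTGS2 log2 ratio in LL replicate 1 went from 0.35 to 1.43 against other cells under the same gates and to 1.10 with at least 10 TPSB2 UMIs. These were the 2 of 15 listed lipid mediator genes with a symbol. Of the granule list 3 of 18 genes had a symbol beside TPSB2, and 2 of them were compared. Neither passed 2-fold in either direction. SERPINB1, which blocks proteases of neutrophil granules, stood at 172 and 110 CPM, and CTSB (cathepsin B) at 35.5 and 63.1 CPM. LYZ had no UMI and stood at 1.72 CPM in other cells. That is under the 17.8 CPM that 0 of 168911 UMIs allows, so a difference was not detectable.

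Signalling genes of the IgE receptor and of growth factor receptors came next. LYN, the kinase that phosphorylates the IgE receptor, was at 59.2 CPM against 24.6, a ratio of 2.40 (1.15 to 4.43), and with FCER1A made up the 2 of 32 listed genes with a symbol. STAT5A, a transcription factor that acts after KIT signalling, was at 71.0 and 25.5 CPM, a ratio of 2.79 (1.44 to 4.88). Of the 5 mast cell transcription factor genes compared, GATA1 and STAT5A were at least 2-fold higher, against 20.7% of all genes compared. At their levels in other cells, GATA1, STAT5A and LYN could enter the comparison only with a ratio above 2. These calls were therefore fixed by the minimum count. EGR1, FOS and BHLHE40 were between 0.574 and 0.961 times the level of other cells. None of the 7 cytokine and pattern receptor genes with a symbol reached the minimum count, and IL2RA, TLR3, TLR4 and CD14 had no UMI. In other cells IL2RA, TLR3 and CD14 stood at 4.73, 10.2 and 5.58 CPM. These are under the 17.8 CPM that 0 of 168911 UMIs allows, so a difference was not detectable. TLR4 stood at 18.5 CPM, just above that limit.

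TGFB1 was the 1 cytokine gene at least 2-fold higher in members. It encodes transforming growth factor beta 1, a regulator of immune cells and matrix, and had 64 UMIs in 23 cells, of which 16 lay in 1 cell. Its level was 379 CPM (292 to 484) against 42.8 in other cells, a ratio of 8.86 (6.80 to 11.4), and 294 CPM without the highest cell. In LL replicate 2 it stood at 429 and 28.8 CPM, but all 5 UMIs came from 1 of the 7 cells. Of the 20 cytokine and chemokine genes with a symbol, 5 were compared, of which FGF2 and XCL1 were at least 2-fold lower. Over all genes compared 20.7% were higher and 19.7% lower. FGF2, a fibroblast growth factor, was at 77.0 and 335 CPM, 4.35-fold lower (2.55 to 8.18). It was at 84.9 CPM in C1QA-positive, 133 CPM in CD3E-positive and 714 CPM in EPCAM-positive cells. XCL1, a lymphocyte chemokine, had 2 UMIs and was 21.7-fold lower (6.01 to 179). IL18 (166 and 132 CPM) and IFNG (148 and 134 CPM) were near the other cells, and 20 of the 25 IFNG UMIs came from 1 cell. Against other cells under the same gates the log2 ratio of IL18 was 2.31, and with at least 5 TPSB2 UMIs that of IFNG was -1.79. The type 2 cytokine genes IL4, IL5 and IL13 were among 11 with no UMI, where 0 of 168911 UMIs allows up to 17.8 CPM. In other cells they stood at 0.633 CPM or less, so a difference was not detectable at this depth.

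Genes of secretion and of the cell surface went in different directions. VAMP7, a SNARE of lysosome-related vesicles, was at 101 and 43.4 CPM, a ratio of 2.32 (1.35 to 3.72). ANXA2, a calcium-dependent membrane-binding protein, was 4.82-fold lower (3.12 to 7.89), a log2 ratio of -2.27 that was -1.08 with at least 10 TPSB2 UMIs. SLAMF1, a self-binding leukocyte receptor, was at 166 CPM (110 to 240) against 16.6, a ratio of 10.0 (6.62 to 14.6), and at 687 against 9.90 CPM in LL replicate 2, on 8 UMIs in 2 cells. CD53, a leukocyte tetraspanin, was seen in 24 of 60 cells at 154 and 49.2 CPM, a ratio of 3.13 (2.04 to 4.59). ITGB1 (385 and 514 CPM) and ICAM1 (77.0 and 60.8 CPM) were within 2-fold. EDNRA, an endothelin receptor gene, was at 59.2 and 54.5 CPM on 10 UMIs in 4 cells, and its log2 ratio of 0.12 became -1.96 without called doublets and 1.14 with at least 10 TPSB2 UMIs. The tetraspanin CD9 was 5.37-fold lower (2.61 to 13.4), the only gene of 4 compared on the adhesion and mediator receptor list past 2-fold. Over all genes compared 19.7% were at least 2-fold lower.

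Other genes with a symbol that were at least 2-fold higher in members had no place on the mast cell lists. BGLAP, the gene of osteocalcin, a vitamin K-dependent protein known from bone, had 43 UMIs in 21 cells, 255 CPM (184 to 343) against 2.499, a ratio of 102 (70.8 to 144). BGLAP had no UMI in the 7 members of LL replicate 2. ST7 was at 278 and 37.2 CPM (ratio 7.48) and CTTNBP2, which encodes a cortactin-binding protein, at 207 and 32.5 CPM (ratio 6.39), each seen in over 20 cells with at most 5 UMIs in any. In LL replicate 2, ST7 had 1 UMI and CTTNBP2 none. FOXO3, a transcription factor of stress resistance, was at 1237 and 232 CPM, a ratio of 5.34 (4.64 to 6.12), but 100 of its 209 UMIs came from 1 cell and without it the level was 656 CPM. CDKN1A, the cell cycle inhibitor p21, was at 1083 and 290 CPM, a ratio of 3.74 (3.21 to 4.32), and at 1545 and 126 CPM in LL replicate 2. TRA2A, a splicing regulator, was seen in 48 of 60 cells at 1036 and 330 CPM, a ratio of 3.14 (2.69 to 3.65). FGF12 and the stress kinase MAPK14 had ratios of 4.11 and 2.91, and were seen in 10 and 27 cells.

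The 15 named genes lower in members were compared across the marker-positive classes of other cells. Among these classes LTF, PAEP, SPP1, CSN3, ATP1B1, CLDN7, SERPINA1 and MET were highest in EPCAM-positive cells. SERPINF1, IGFBP3 and ID3 were highest in DCN-positive cells (752, 338 and 293 CPM), DQA in C1QA-positive and XCL1 in CD3E-positive cells. For ABCG2 and SELP the highest class was EDNRA-positive cells, at 105 and 65.0 CPM. All other cells of LL replicate 1 together stood at 158.8 and 137.5 CPM, so cells outside these classes held higher levels of both. LTF, the iron-binding milk protein lactoferrin, had 2 UMIs and was 65.6-fold lower (18.1 to 541). PAEP, which encodes beta-lactoglobulin, had 6 UMIs, 35.5 CPM against 920, or 25.9-fold lower (11.9 to 70.6). SPP1 (osteopontin), CSN3 (kappa-casein), ATP1B1 (a sodium pump subunit) and CLDN7 (a tight junction claudin) had no UMI, which puts them at least 18.1-, 16.5-, 11.6- and 6.81-fold lower, taking 3 counts over the 60 cells as the limit. The same holds for SELP, a selectin of endothelium (at least 7.74-fold), the transporter ABCG2 (8.94-fold), IGFBP3 (4.36-fold), SERPINA1 (3.84-fold) and MET (3.37-fold). DQA, an MHC class II chain, had no UMI either and was at least 13.4-fold lower than the 237 CPM of other cells. ID3, an inhibitor of bHLH factors, and SERPINF1, a secreted serpin, had 1 UMI each, with ratios to other cells of 0.0426 (0.00108 to 0.237) and 0.0492 (0.00124 to 0.274). The rule itself removed cells with EPCAM, CD3E, C1QA or much DCN, so low levels of genes that go with them were partly set by the choice of cells. Against other cells that met the same gates and had no TPSB2, PAEP was at a log2 ratio of -2.83, LTF at -1.99 and SERPINF1 at 0.39.

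Genes of the immediate early and dissociation response were mixed. Of 8 compared, NFKBIA, whose product holds NF-kappa-B in the cytoplasm, and CDKN1A were at least 2-fold higher, while KLF4 and MYC were at least 2-fold lower. Over all genes compared 20.7% were higher and 19.7% lower, so these counts do not set the list apart. NFKBIA was at 2558 and 1077 CPM, a ratio of 2.38 (2.16 to 2.61), and at 10726 against 1189 CPM in LL replicate 2. In C1QA-positive cells it was at 5023 CPM (4925 to 5123) in LL replicate 1, above the members. In LL replicate 2 these cells had 6414 CPM (6208 to 6626), below the members there. FOS stood at 2492 and 4341 CPM. Of 4 housekeeping genes compared (19.7% of all genes compared were lower), ACTB and B2M were 4.82-fold (2.92 to 8.62) and 4.91-fold (2.81 to 9.51) lower. GAPDH had a ratio of 1.12 and YWHAZ of 1.96.

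The members were also set beside 2 leukocyte classes of the same library. These were 337 C1QA-positive cells (at least 2 C1QA UMIs, none of TPSB2, CD3E or EPCAM) and 353 CD3E-positive cells (at least 2 CD3E UMIs, none of TPSB2, C1QA or EPCAM). Of 3728 genes compared with C1QA-positive cells, 1037 (27.8%) were at least 2-fold higher in members and 708 (19%) lower. With TMM scaling, which moves all log2 ratios by -0.35, these were 683 and 957. Of 3580 genes compared with CD3E-positive cells, 1033 (28.9%) were higher and 506 (14.1%) lower, or 752 and 729 with TMM scaling, which moves them by -0.33. Against all other cells the TMM shift was -0.10 and the counts were 712 and 833.

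Single genes set the members apart from each class in a different way. SLAMF1 was at 1.01 CPM in C1QA-positive cells (0.122 to 3.65) and at 120 CPM in CD3E-positive cells (102 to 142), the latter overlapping the interval of the members. LYN was higher in C1QA-positive cells, at 176 CPM (158 to 196), than in members, and lower in CD3E-positive cells, at 9.08 CPM (4.53 to 16.2). CD53 was at 250 CPM (229 to 273) in C1QA-positive cells, above the members' interval of 101 to 226 CPM, and at 224 CPM (199 to 253) in CD3E-positive cells, which overlaps it. TGFB1 was at 120 and 123 CPM in these classes, below the lower bound of 292 CPM in members. DQA was at 4612 CPM in C1QA-positive cells and had no UMI in members. FCER1A and GATA1 had no UMI in either class, and BGLAP was at 0.505 and 8.25 CPM.

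**Figure D3:**
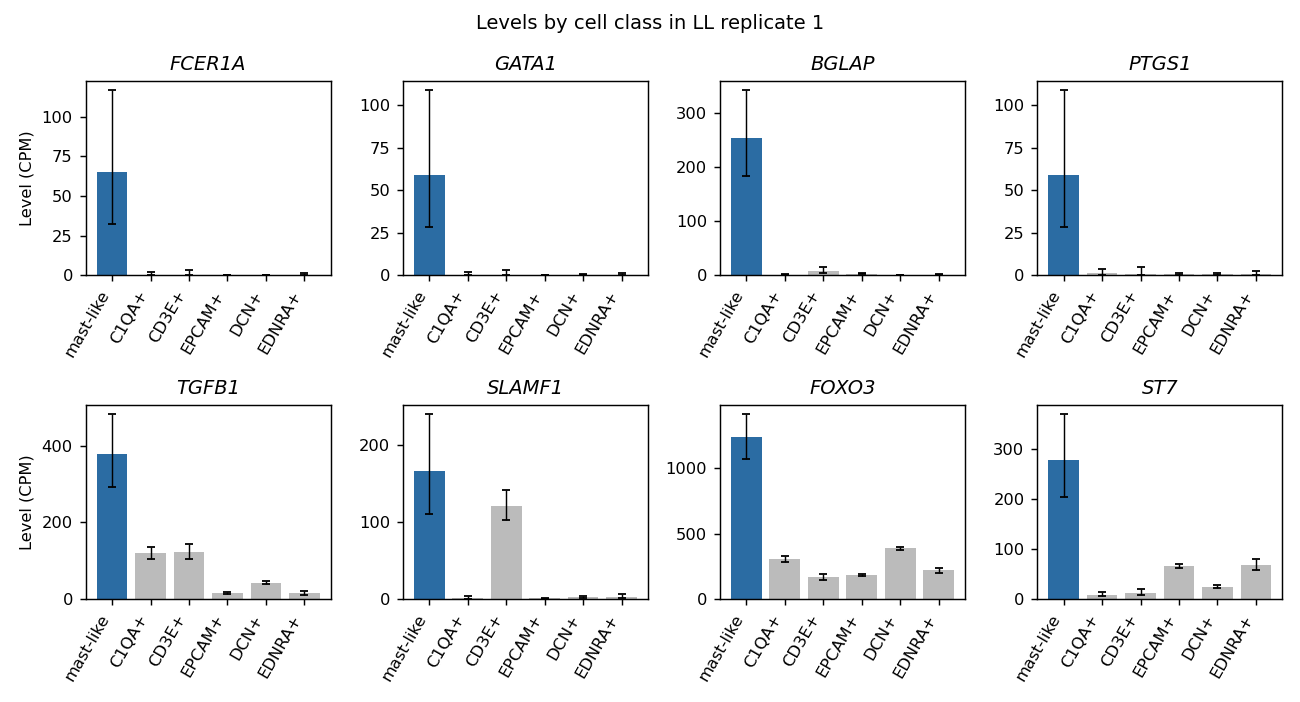
Levels in CPM (vertical axes, each from 0) of 8 genes in the 60 mast cell-like cells (blue) and 5 classes of other cells without TPSB2 (grey), all of LL replicate 1, with Poisson 95% intervals as bars. FCER1A and GATA1 have 0 UMIs in all 5 classes, and SLAMF1 reaches 120 CPM in CD3E-positive cells.

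The members themselves varied in depth and in TPSB2. In LL replicate 1 they had 796 to 8781 UMIs (median 2425.5) against a median of 3057 in other cells, and a median of 1126 genes against 1389. TPSB2 ran from 3 to 39 UMIs per cell with a median of 7, and from 6.23 to 125 per 10000 UMIs with a median of 29.2. In LL replicate 2 the 7 cells had 861 to 3159 UMIs and 3 to 10 of TPSB2, a median of 34.8 per 10000. The share of mitochondrial UMIs had a median of 4.41% in the members of LL replicate 1 and 3.97% in other cells. A doublet caller marked 4 of these 60 cells and 0 of the 7.

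**Figure D4:**
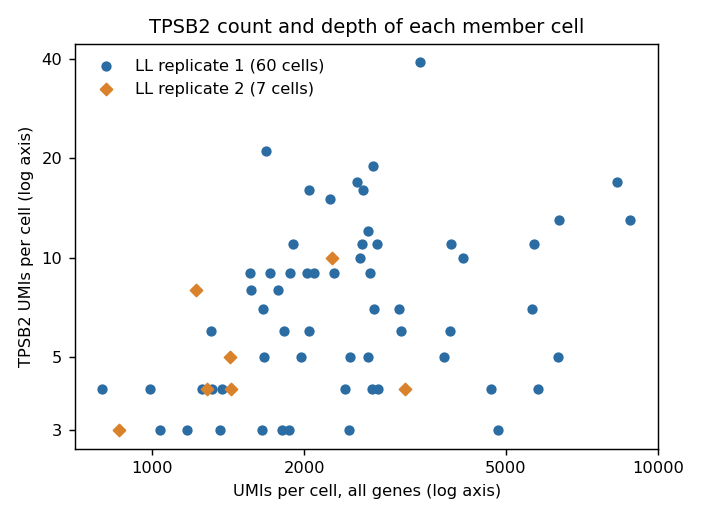
TPSB2 UMIs of each member cell (vertical log axis) against its UMIs over all genes (horizontal log axis), with circles for LL replicate 1 and diamonds for LL replicate 2. The deepest cell has 8781 UMIs, and the cell with most TPSB2 has 39 UMIs of it.

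The minimum of 3 TPSB2 UMIs lay within a graded range. Among cells of LL replicate 1 that met the other gates, 8 had exactly 3 UMIs and 8 had 2. GATA1 was at 186 CPM in the former and 157 CPM in the latter, on 3 UMIs each, and TGFB1 at 371 and 261 CPM. BGLAP was at 309 CPM (100 to 722) with 3 UMIs and 52.2 CPM (1.32 to 291) with 2, intervals that overlap. FCER1A had no UMI in either group. The 13 cells with 1 UMI had FCER1A at 32.6 CPM (2 UMIs), BGLAP at 81.6 CPM and no GATA1 UMI, while 7394 cells with none had FCER1A at 0.112, BGLAP at 1.38 and GATA1 at 0 CPM. These groups are small, and each value rests on a few UMIs.

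Within the members, cells with many and few TPSB2 UMIs were compared gene by gene. FOXO3 was at 1770 CPM (1500 to 2075) in the 34 cells with 4 to 9 UMIs and 703 CPM (516 to 934) in the 18 with 10 or more. Of the former, 100 UMIs lay in 1 cell, and without the highest cell of each class the levels were 625 CPM (467 to 820) and 528 CPM (366 to 738), which overlap. ST7 was at 408 CPM (284 to 567) and 135 CPM (61.5 to 255), intervals that do not overlap, also without the highest cell of each class (243 to 515 and 43.2 to 221 CPM). For 4 other genes the intervals overlapped: SLAMF1 was at 245 CPM (151 to 374) and 89.7 CPM (32.9 to 195), BGLAP at 163 CPM (89.1 to 274) and 359 CPM (230 to 534), FCER1A at 58.2 and 89.7 CPM, and TGFB1 at 338 and 434 CPM. Without the highest cell TGFB1 was at 162 and 337 CPM, again with overlapping intervals. All of these cells came from 1 ewe, so the spread between ewes of these differences was not measured. The 18 barcodes that failed a gate had BGLAP at 28.7 CPM (7.83 to 73.6) and TGFB1 at 79.0 CPM (39.5 to 141). Both lay below the intervals of all 60 members (184 to 343 and 292 to 484 CPM). FCER1A was at 21.6 CPM (4.45 to 63.0) on 3 UMIs, which overlaps the members' interval of 32.5 to 117 CPM.

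**Figure D5:**
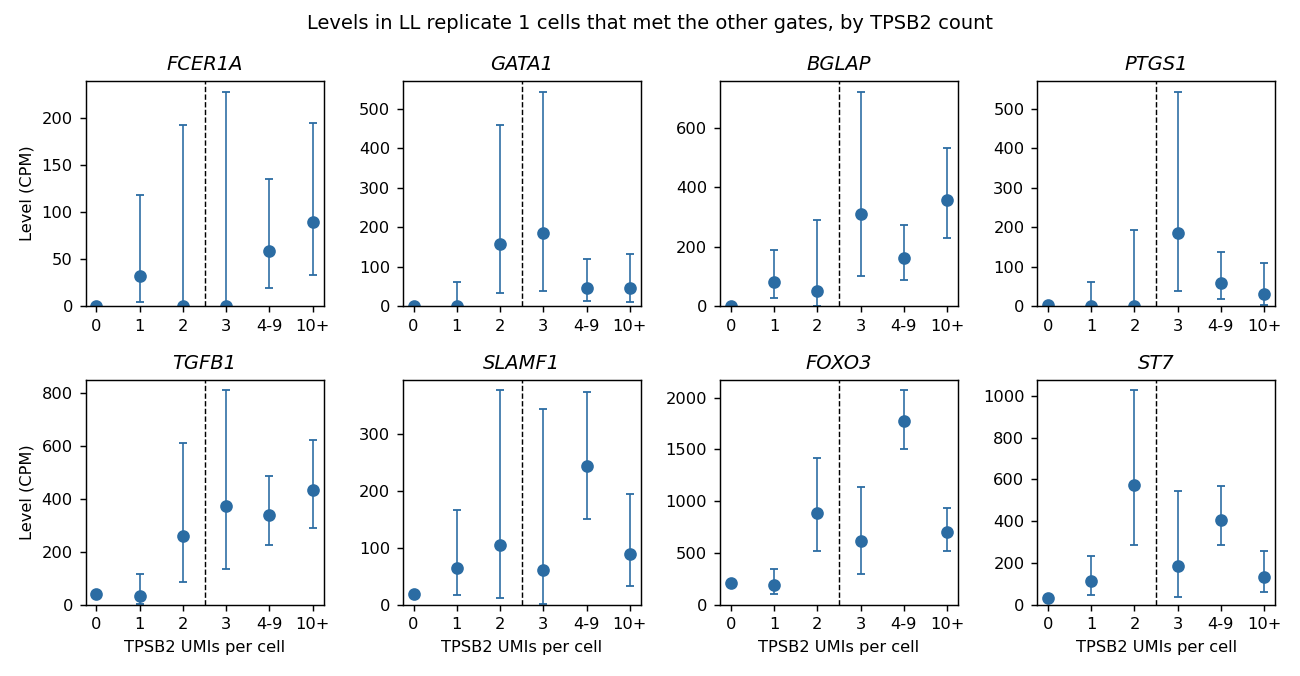
Levels in CPM (vertical axes) of 8 genes in cells of LL replicate 1 that met the other gates, by TPSB2 UMIs per cell (horizontal axis), with Poisson 95% intervals. The dashed line marks the minimum of 3 UMIs; GATA1 reads 157 CPM just below it and 186 CPM just above.

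Most genes that marked the members had an identifier alone. Of the 132 genes at least 8-fold higher than in other cells, 126 had no symbol. ENSOARG00000003456 had 179 UMIs in 55 of the 60 cells, 1060 CPM (910 to 1227) against 0.900, and in LL replicate 2 it had 5 UMIs in the 7 cells. It had 0 UMIs in kept cells of both LH libraries. ENSOARG00000007300 had 27 UMIs in 14 cells, 160 CPM against 0.183, and had 16 and 18 UMIs in the LH libraries. On the lower side, ENSOARG00000016773 and ENSOARG00000013548 had no UMI in the 60 cells and were at least 18.2-fold and 12.4-fold lower.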

How the data were processed

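The authors deposited raw UMI counts in a gene-by-barcode matrix for each of 4 sheep mammary libraries (2 LH, 2 LL, grouped by title). They were made with Cell Ranger 7.2.0 per the file headers and 5.0.1 per the submitters' processing notes. Those notes list Seurat 3.2.0 and STAR as well. Which genome build was used is not given in the sources used here. Of the 774 symbols 762 were in the supplied RefSeq table of ARS-UI_Ramb_v3.0, and 0 identifiers matched it, so no coordinates were used. No barcode had under 500 UMIs, and 360 over 20% mitochondrial were left out.

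The members, gene lists and tests were chosen with earlier results of these data known. The edgeR test that was planned needed 2 libraries with at least 10 member cells and was not made, since 1 had that many. A fit with the 7 cells of LL replicate 2 was tried and dropped, since its TMM factors were unstable and it did poorly in the self-test. In its place counts were summed over cells, and levels are CPM of these sums, with the planned TMM scaling as an alternative. A ratio has the exact conditional binomial interval of its 2 counts. Genes were named if on a mast cell list with at least 10 UMIs, or among the 15 largest ratios each way with at least 2-fold difference (in place of the adjusted p) and 20 CPM in the higher class. Of these, 1 is not reported here. Genes of the marker, immediate early and housekeeping lists, and CD9, CTSB and LYZ, were named to describe their lists. Genes of the tryptase family lie in near-identical copies, so TPSB2 counts may hold or lack reads of other copies.

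Shares of LL and LH were compared by exact permutation over 6 arrangements. Thinning drew 1000 UMIs per cell at a fixed seed. Scrublet (scanpy 1.11.5) marked 4.37% to 4.71% of 3 libraries and 0 cells of LH replicate 1, where it did not work; its calls were used in an alternative only. Scaling alternatives came from edgeR 4.0.16 and DESeq2 1.42.0 in R 4.3.3. The ratio intervals were tested on simulated Poisson counts, the model they assume, so the test does not cover UMIs gathered in single cells.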

Additional observations from a re-analysis of the deposited data

How the results depend on the processing

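The difference in share between LL and LH, whose sign is fixed where LH holds no member, ran from 0.0757 percentage points with at least 10 TPSB2 UMIs to 0.319 with at least 2, and from 0.0634 (without LL replicate 1) to 0.475 (without LL replicate 2) with single libraries left out. With replicate number as a block it was 0.269 with an exact p = 0.5, the smallest that 4 arrangements give. No paired analysis was possible because LH held no member cell for the expression comparisons. With at least 10 TPSB2 UMIs (18 cells, fewer genes compared) 486 genes were at least 2-fold higher than in other cells and 264 lower. Without a minimum count 1979 were higher and 10161 lower, and the same setting gave 2825 and 6049 against C1QA-positive cells and 2869 and 5201 against CD3E-positive cells. TMM scaling gave 683 genes higher than in C1QA-positive cells. Of 451 ratios of named genes under 13 settings, 14 had the other sign, in 6 genes (BHLHE40, EDNRA, IFNG, IL18, PTGS2 and SERPINF1). Of these SERPINF1 alone was at least 2-fold different in the reported comparison, and it stood at log2 0.39 against other cells under the same gates, on 1 UMI. Apart from SERPINF1, 412 stayed within their counting interval and 38 left it. With at least 10 TPSB2 UMIs the log2 ratios were 2.41 for SLAMF1, 1.83 for ST7, 1.59 for FOXO3 and 4.62 for PTGS1. Against other cells under the same gates they were 4.08 for CTTNBP2, 1.29 for FGF12, 1.25 for CDKN1A and 7.53 for BGLAP. The cause was not tested. Comparisons of expression between LL and LH, a fit with no library block, and leaving out libraries in the comparisons within LL replicate 1 were not run, since 1 library held 10 member cells. Depth limits single genes most: 1 UMI is worth 5.92 CPM in LL replicate 1 and 85.8 CPM in LL replicate 2.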

Other observations

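TPSB2 was also seen at a low level in cells that did not meet the rule. The classes used here can hold barcodes with at least 3 TPSB2 UMIs that failed a gate, of which LL replicate 1 had 18. In LH replicate 1 all 5 barcodes with a TPSB2 UMI had EPCAM, and in LH replicate 2 it was 44 of 48, with median depths of 43253 and 17833 UMIs. In EPCAM-positive cells (at least 2 EPCAM UMIs, under 5 of DCN, no CD3E or C1QA) TPSB2 stood at 0.671 CPM (Poisson 95% interval 0.183 to 1.72) and 1.24 CPM (0.862 to 1.74) in LH replicates 1 and 2, and at 5.21 CPM (4.02 to 6.64) and 0.350 CPM (0.186 to 0.598) in LL replicates 1 and 2. LL replicate 1, which held the most members, also had the highest level. In LL replicate 1 the TPSB2 level was 6.42 CPM in DCN-positive cells, 0.503 CPM in C1QA-positive and 0.425 CPM in EDNRA-positive cells, against 2984 CPM in members. CD3E-positive cells had 3.28 CPM, on 4 UMIs that all came from 1 cell. With cells thinned to 1000 UMIs, 0.727% of EPCAM-positive cells and 87.9% of members had TPSB2 (5.21% and 100% unthinned).

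The mitochondrial genes of the members did not move together. ND5, a subunit of complex I, was at 3144 CPM in the members of LL replicate 1 and 953 CPM in other cells, a ratio of 3.30 (3.02 to 3.59), and at 1888 and 801 CPM in LL replicate 2. In LL replicate 1 ND1 and ND2 had ratios of 1.61 and 1.47, while COX1, COX2 and COX3 had ratios of 0.813, 0.757 and 0.848. All of these are encoded on the mitochondrial genome.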
